A study of Rattus norvegicus with 9 samples.

Results

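The interleukin-1 (IL-1) family genes examined here were the cytokines Il1a, Il1b, Il18 and Il33, the antagonist Il1rn, the receptor genes Il1r2 and Il1rap, and the inflammasome genes Nlrp3, Casp1 and Pycard. These 10 genes were picked by name from the 28343 genes of a count table, with earlier results of the same libraries known. All 10 were among the 11748 genes that held enough counts to be tested. Because the comparison of diabetic with control libraries entered the choice, fold changes and p-values of these 10 genes are given as a description.

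RNA had been sequenced from CD11b-positive cells sorted out of papain-digested whole retinas of Dark Agouti rats, an inbred strain. In the diabetic group, 4 libraries (numbered 1, 2, 4 and 5) came from rats given 55 mg/kg streptozotocin, which destroys pancreatic beta cells, at an age of 8 to 10 weeks. In the control group, 5 libraries (numbered 1, 3, 4, 5 and 6) came from rats that received citrate buffer. Both groups fasted for 12 hours before the injection, retinas were taken 4 weeks after it, and diabetic rats were given 2 units of the insulin Protaphane when blood glucose passed 30 mmol/l. CD11b is carried by microglia and also by neutrophils, monocytes and border macrophages, and streptozotocin diabetes is a model of insulin deficiency.

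IL-1 alpha and IL-1 beta are released by activated myeloid cells and act on one receptor, which signals through MyD88 and IRAK kinases to NF-kappaB. IL-1 beta and IL-18 are made as inactive precursors that caspase-1 cleaves once NLRP3 and the adaptor ASC (encoded by Pycard) have assembled an inflammasome. IL-33 is kept in the nucleus, is released from damaged cells and signals through its own receptor ST2; in the retina it is known chiefly from Muller glia and astrocytes.

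Total counts ran from 6228756 (diabetic 4) to 11332823 (control 3) per library. The 10 microglia identity genes, among them Cx3cr1, P2ry12 and Tmem119, held 2.03% to 2.91% of counts in control libraries and 2.41% to 2.62% in diabetic libraries. Controls 4 and 6 stood apart from the other 7 libraries: their TMM normalisation factors were 0.927 and 0.839 against 1.01 to 1.07, and results that rest on them are followed by the value without them. Neutrophil genes held 0.0274% to 0.0394% of counts in control and 0.0319% to 0.0376% in diabetic libraries, with Mpo at 0. Csf3r, a receptor gene at 278 to 370.5 normalised CPM in every library, made up 78.1% to 99.7% of these reads. Of the 5 neutrophil genes tested, 4 had a positive log2 difference: S100a8, S100a9, Mmp8 and Cxcr2. Each was at an unadjusted edgeR p under 0.05, where 8.94% of all genes were higher. Csf3r had a negative difference, also at an unadjusted edgeR p under 0.05, where 10% of all genes were lower. Its diabetic libraries all lay below its controls, as for 4.16% of all genes. None of the 5 passed after adjustment. Monocyte genes held 0.00595% to 0.0113% and 0.0108% to 0.0182%, with Ccr2 at 0. Border macrophage genes held 0.0335% to 0.0758% and 0.0669% to 0.152%. Vascular genes held 0.0182% to 0.0373% and 0.0171% to 0.0253%, photoreceptor genes 0.0246% to 0.130% and 0.0366% to 0.194%. Lymphocyte genes held 0.00329% to 0.00619% and 0.00393% to 0.00445%, with Cd3d, Cd3g, Ms4a1 and Nkg7 at 0.

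The start regions of the 3 cytokine genes that behaved most differently are shown because Il1a and Il1b were high in the same libraries and Il33 was not. Each sequence holds the 250 bases before a RefSeq transcript start on the GRCr8 build, written 5′ to 3′ along the gene's own strand. Capitals mark a TATA box (TATAAA on either strand), an AP-1 site (TGANTCA) or a C/EBP site (TTGCNNAA).
Il1a, chr3:136990018-136990267, minus strand: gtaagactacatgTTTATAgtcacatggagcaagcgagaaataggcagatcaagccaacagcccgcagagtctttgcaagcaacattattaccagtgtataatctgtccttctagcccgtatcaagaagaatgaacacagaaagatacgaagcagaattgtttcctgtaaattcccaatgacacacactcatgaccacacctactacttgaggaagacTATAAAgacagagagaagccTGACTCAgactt
Il1b, chr3:137036582-137036831, minus strand: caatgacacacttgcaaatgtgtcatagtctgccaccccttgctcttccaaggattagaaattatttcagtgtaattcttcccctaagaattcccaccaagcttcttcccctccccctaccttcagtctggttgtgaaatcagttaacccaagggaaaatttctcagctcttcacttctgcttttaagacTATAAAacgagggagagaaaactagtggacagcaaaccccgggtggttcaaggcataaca
Il33 first start, chr1:237115323-237115572, plus strand: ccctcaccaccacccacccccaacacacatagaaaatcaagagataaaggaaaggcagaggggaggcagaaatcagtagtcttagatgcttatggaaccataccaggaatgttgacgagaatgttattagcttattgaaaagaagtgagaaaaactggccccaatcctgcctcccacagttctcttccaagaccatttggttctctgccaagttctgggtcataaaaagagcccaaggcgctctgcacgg
Il33 second start, chr1:237134696-237134945, plus strand: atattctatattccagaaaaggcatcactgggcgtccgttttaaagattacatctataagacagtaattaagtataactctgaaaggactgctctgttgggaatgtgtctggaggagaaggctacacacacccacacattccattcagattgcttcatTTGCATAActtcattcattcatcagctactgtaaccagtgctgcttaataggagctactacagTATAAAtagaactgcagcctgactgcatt

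A TATA box lay 32 to 27 bases before the start of Il1a, 60 to 55 bases before that of Il1b and 29 to 24 bases before the second start of Il33. In Il1a an AP-1 match followed at 12 to 6 bases, and a TATA match on the opposite strand lay at 237 to 232 bases. The second Il33 window held a C/EBP match at 92 to 85 bases, and the first Il33 window held none of the motifs searched. Of 33465 rat windows of this length, searched on both strands, 12.9% held TATAAA, 6.34% the AP-1 letters and 9.22% the C/EBP letters. The NF-kappaB consensus was found in 6.33% of windows and the PU.1-type ETS site GAGGAAGT in 2.04%, and neither was found in the windows shown. Among the other genes, Il1rap held an NF-kappaB consensus match of the letters GGGAAGCCCC, at 1 site that both of its overlapping windows cover. These matches describe letters only. RefSeq windows were matched for 9 of the 10 genes, all but Il1r2.

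Il33 was lower in diabetic than in control libraries. Values are read counts per library size scaled by TMM factors, called normalised CPM. Il33 stood at 372, 329.5, 407, 344 and 359 in controls 1, 3, 4, 5 and 6, and at 230.5, 230.1, 249 and 278 in diabetics 1, 2, 4 and 5. Every diabetic library lay below every control library, and the groups did not overlap. The means were 362 ± 29.6 (SD, n = 5) and 247 ± 22.3 (SD, n = 4), a fold of 0.681 and a log2 difference of -0.55 (SE 0.14, edgeR quasi-likelihood test, Benjamini-Hochberg adjusted p = 0.0608). This missed the threshold of 0.05. Each value rested on 1559 to 3938 reads. In these sorted bulk samples, fewer cells that express a gene and less RNA per cell cannot be told apart.

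Il33 was also one of the most even of the 10 genes between libraries of a group. Its highest control library was 1.23 times its lowest, and its log2 SD over the 5 control libraries (0.12) ranked 10495th of the 11748 genes from the most to the least variable. The log2 difference of Il33 without controls 4 and 6 was -0.51 (SE 0.14, edgeR adjusted p = 0.0761). Markers of Muller glia and astrocytes, 8 of 9 of which were tested, held 0.212% to 0.258% of counts in control and 0.204% to 0.239% in diabetic libraries. None of them passed, with 6 negative and 2 positive and a median log2 difference of -0.18. At an unadjusted edgeR p under 0.05, 3 were lower and 0 higher, where 10% of all genes were lower and 8.94% higher. In the fit without controls 4 and 6, 4 were positive and 5 negative, with a median of -0.089. There 2 were lower at an unadjusted edgeR p under 0.05, as were 1775 of all 11902 genes in either direction. Car2 had a log2 difference of -0.53 (edgeR adjusted p = 0.0991), Slc1a3 -0.36 and Gfap 0.33. Glul (-0.17) was the one whose groups did not overlap, as for 4.16% of all genes lower in diabetic libraries. Of 9 vascular genes tested, 8 were negative and 1 positive, with a median of -0.49, and none passed. At an unadjusted edgeR p under 0.05, 2 were lower and 0 higher. Without controls 4 and 6, 7 of 8 were negative, with a median of -0.74, and 4 were lower at that unadjusted p. The part of Muller glia, astrocytes and vascular cells in the Il33 difference was not tested.

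Il1a and Il1b were dominated by control libraries 4 and 6. Il1a stood at 21.6, 37.1, 1686, 128 and 3221 normalised CPM in controls 1, 3, 4, 5 and 6, and at 88.3, 98.7, 31.3 and 246 in diabetics 1, 2, 4 and 5. Diabetics 1, 2 and 4 lay inside the range of controls 1, 3 and 5, diabetic 5 lay above it, and all diabetic libraries lay below controls 4 and 6, so the groups overlapped. Il1b stood at 2672 and 6392 in controls 4 and 6, at 56.5 to 288 in the other controls and at 132 to 460.2 in the diabetic libraries. For Il1b only diabetic 4 lay inside the range of controls 1, 3 and 5, and the other 3 diabetic libraries lay above it. Diabetic 4 was the lowest diabetic library and diabetic 5 the highest for both genes.

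The means of Il1a were 1019 ± 1418 (SD, n = 5) and 116 ± 91.4 (SD, n = 4), with a log2 difference of -3.13 (SE 1.89, edgeR adjusted p = 0.338). Leaving out controls 4 and 6, a pair chosen for its high Il1b, turned the sign of both genes: the log2 difference became 0.90 (SE 1.00) for Il1a and 1.16 (SE 0.85) for Il1b, from -2.56 (SE 1.68) with all libraries. Without control 6 alone it was -2.01 for Il1a and -1.26 for Il1b, and limma-voom on all libraries gave -1.21 and -0.63. The direction of both IL-1 cytokines therefore rested on these 2 control libraries.

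**Figure D1:**
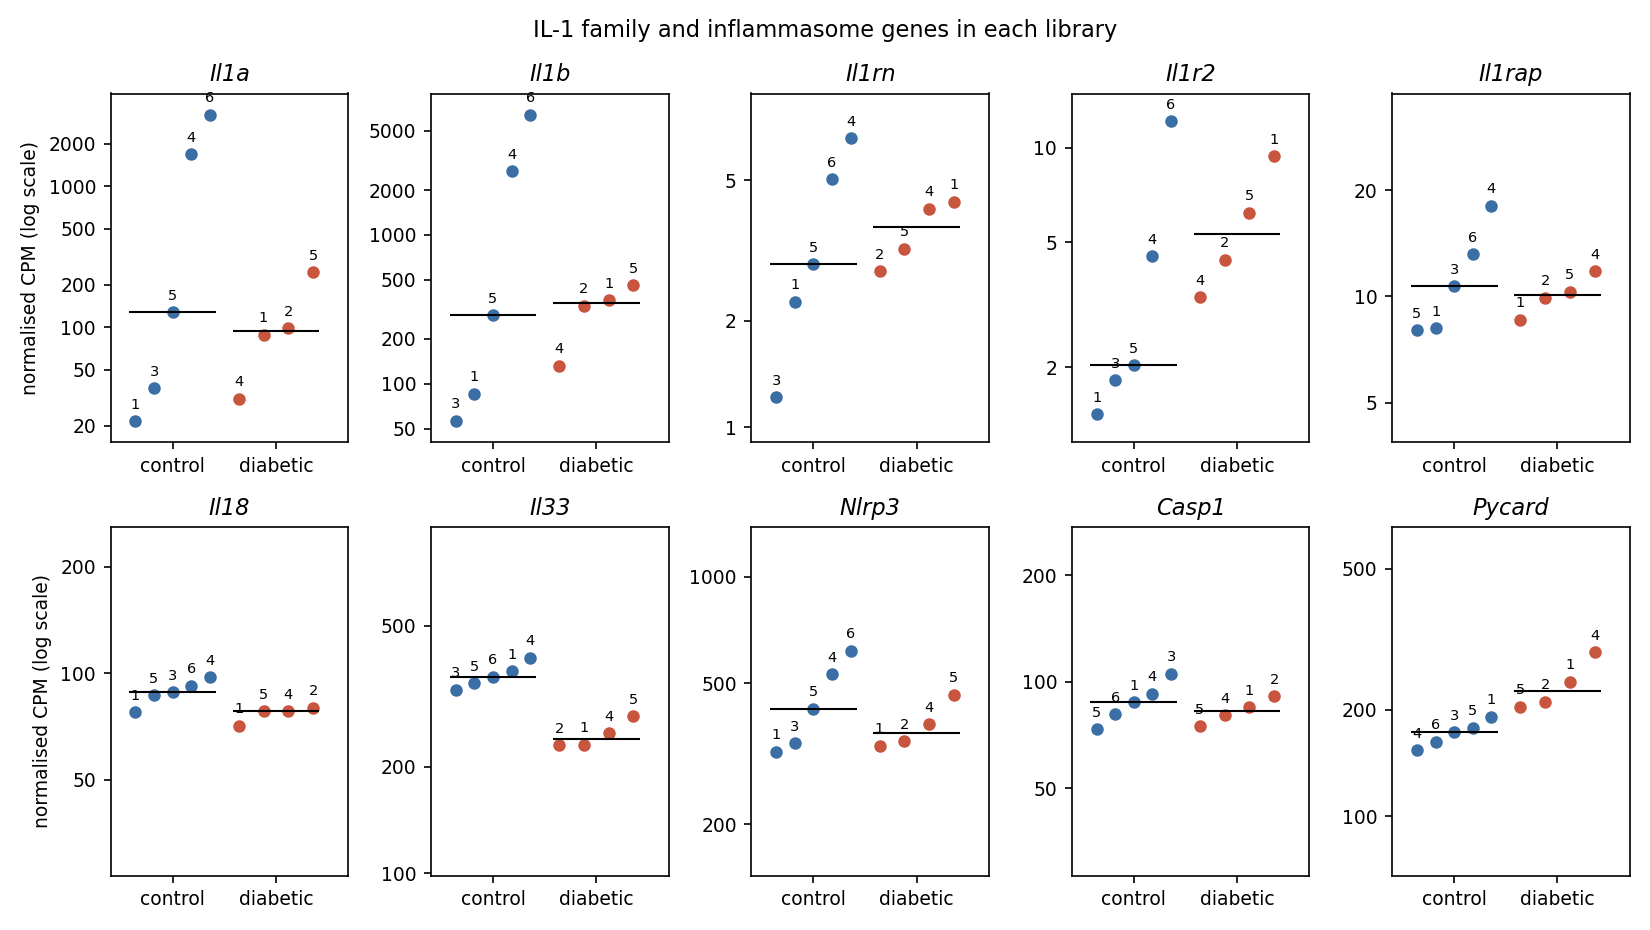
Normalised CPM of each gene (log axis) in the 5 control libraries (blue) and the 4 diabetic libraries (red), with library numbers above the points and bars at the group medians. Il33 and Pycard have groups that do not overlap, and controls 4 and 6 reach 1686 and 3221 for Il1a.

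Il1a and Il1b ranked 3rd and 7th of 11748 genes by their log2 SD over the control libraries (3.24 and 3.01). The highest control library was 149 times the lowest for Il1a and 113 times for Il1b. Among the diabetic libraries the same ratio was 7.86 for Il1a and 3.48 for Il1b. Without control 6 the control ratio was 77.9 for Il1a and 47.3 for Il1b. From controls 1, 3 and 5 alone it was 5.90 for Il1a, below the diabetic ratio, and 5.10 for Il1b, so the wide control spread rested on controls 4 and 6. Without diabetic 4 the diabetic ratio was 2.78 for Il1a and 1.38 for Il1b.

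**Figure D2:**
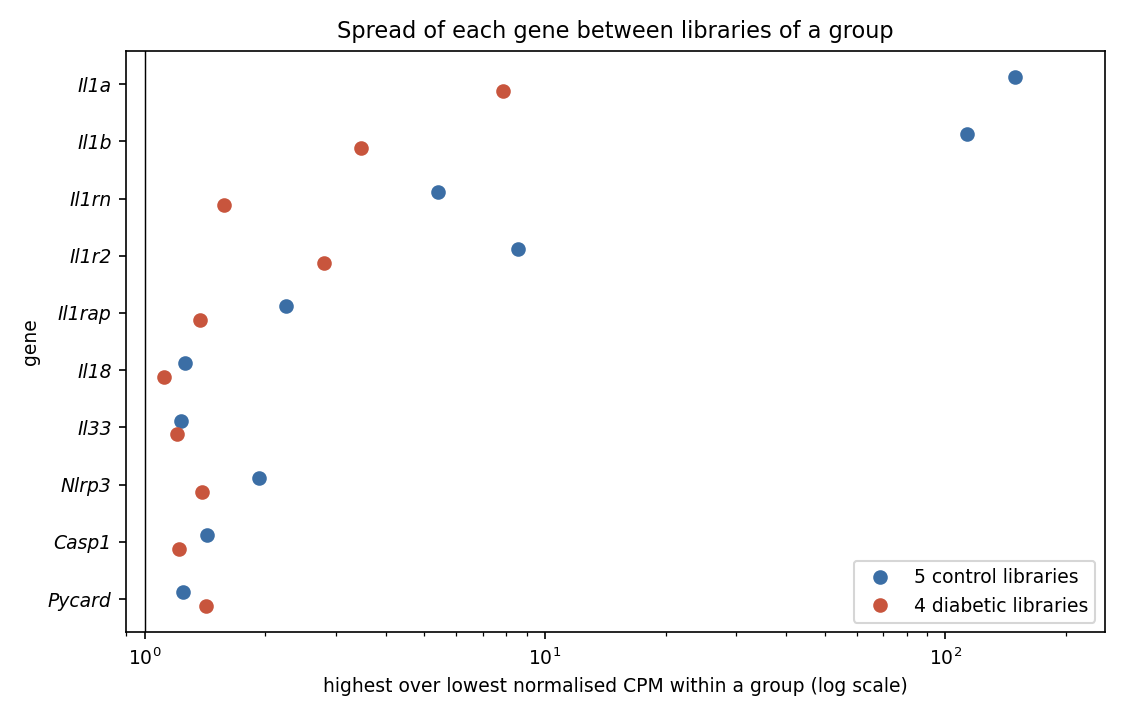
Highest over lowest normalised CPM within the 5 control libraries (blue) and within the 4 diabetic libraries (red) for each gene, on a log axis where 1 means no spread. Il1a and Il1b reach 149 and 113 among controls, against 1.23 for Il33.

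The contrast between Il33 and the IL-1 cytokines was read within each library as a log2 ratio, with 0.5 CPM added to both values. Il33 over Il1a was 4.07, 3.13, -2.05, 1.42 and -3.16 in controls 1, 3, 4, 5 and 6, and 1.38, 1.22, 2.97 and 0.18 in diabetics 1, 2, 4 and 5. Il33 thus exceeded Il1a in reads in all diabetic libraries and in all controls but 4 and 6. Il33 over Il1b was 2.11, 2.53, -2.71, 0.25 and -4.15 in the controls, and -0.66, -0.54, 0.91 and -0.73 in the diabetics. Here Il1b held more reads than Il33 in diabetics 1, 2 and 5 and in controls 4 and 6.

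The mean ratio differed little between groups beside its spread: 0.68 ± 3.17 (SD, n = 5) in control and 1.44 ± 1.15 (SD, n = 4) in diabetic libraries for Il1a, and -0.39 ± 2.95 and -0.25 ± 0.78 for Il1b. The control values alone spanned 7.24 and 6.68 log2 units. From controls 1, 3 and 5 alone the control means were 2.88 ± 1.34 (SD, n = 3) for Il1a and 1.63 ± 1.21 (SD, n = 3) for Il1b, and the difference between the groups, diabetic minus control, turned from 0.75 to -1.44 and from 0.14 to -1.89. A ratio of reads between genes of different length orders libraries, not the levels of the genes. Within a group, the libraries kept Il33 within a narrow band whatever their Il1a or Il1b: control 6, the highest for Il1b, and control 3, the lowest, held 359 and 329.5 normalised CPM of Il33.

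**Figure D3:**
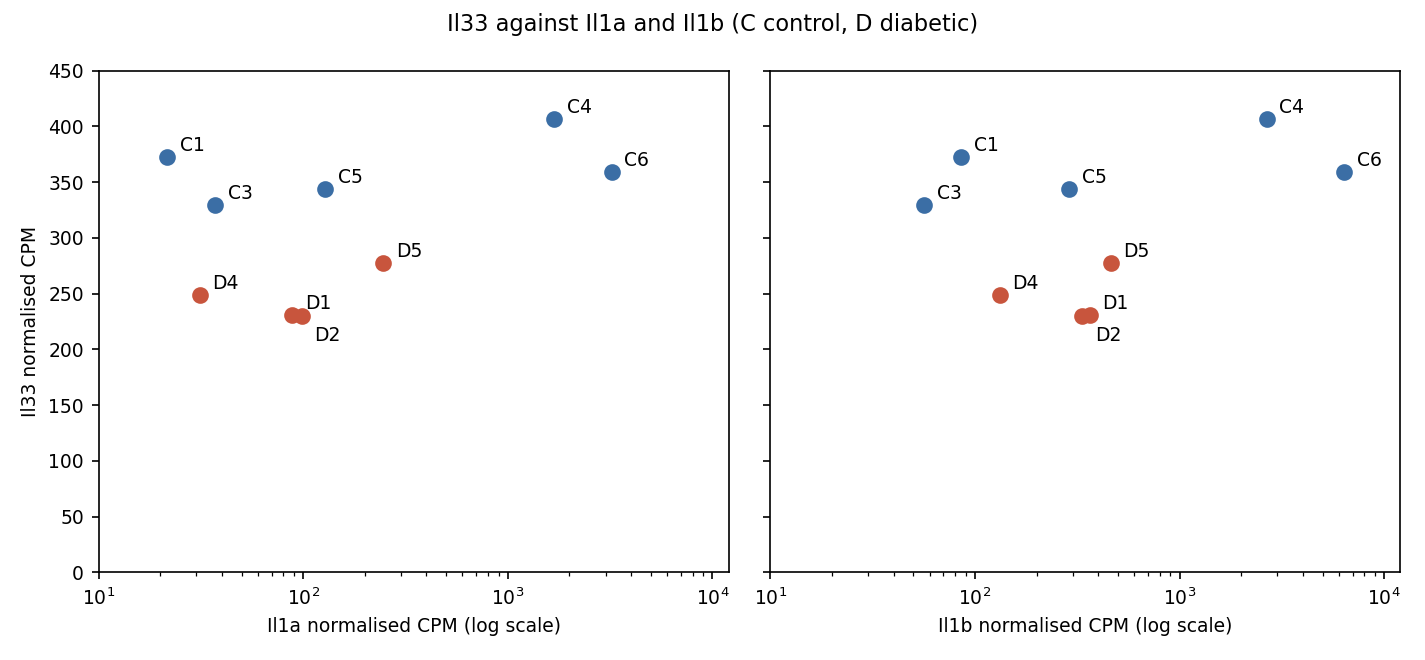
Normalised CPM of Il33 (linear axis from 0) against that of Il1a (left) and Il1b (right, log axes) in each library, controls in blue and diabetics in red. Il33 separates the groups at between 278 and 329.5, and controls 4 and 6 lie far to the right.

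Il18, the other caspase-1 substrate among the cytokines, was even in both groups. It stood at 77.4, 88.4, 97.5, 86.6 and 92.1 normalised CPM in controls 1, 3, 4, 5 and 6, and at 71.1, 79.7, 78.1 and 78.0 in diabetics 1, 2, 4 and 5. All controls but control 1 lay above every diabetic library, so the groups overlapped by that library. The log2 difference was -0.20 (SE 0.10, edgeR adjusted p = 0.264).

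The antagonist and the receptors were weakly expressed. Il1rn encodes the IL-1 receptor antagonist, which binds the receptor without signalling. It rested on 14 to 61 reads per library and stood at 2.27, 1.22, 6.56, 2.89 and 5.03 normalised CPM in the controls against 4.35, 2.76, 4.15 and 3.20 in the diabetics. Controls 4 and 6 were again its highest libraries, and the groups overlapped. The log2 difference was 0.02 (SE 0.44, edgeR adjusted p = 0.989) and 0.76 (SE 0.43) without controls 4 and 6.

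Il1r2 encodes the decoy receptor, which takes up IL-1 without signalling. It stood at 1.42, 1.82, 4.52, 2.04 and 12.1 normalised CPM in the controls and at 9.39, 4.39, 3.35 and 6.21 in the diabetics, from 15 to 95 reads. Control 6 was the highest of all libraries and controls 1, 3 and 5 were the lowest. The log2 difference was 0.45 (SE 0.65, edgeR adjusted p = 0.715), 1.27 without control 6 and 0.12 without diabetic 1. Leaving out controls 4 and 6 gave 1.73 (SE 0.52, edgeR adjusted p = 0.132), and every remaining control then lay below every diabetic library. Controls 4 and 6 were the highest controls for Il1r2, so leaving them out raises the difference and removes the overlap by itself.

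Il1rap encodes the accessory chain shared by the receptors of IL-1 and IL-33. It ran from 8.03 to 18.1 normalised CPM in control and from 8.60 to 11.8 in diabetic libraries, with the highest value in control 4. The log2 difference was -0.20 (SE 0.25, edgeR adjusted p = 0.676), and 0.17 without controls 4 and 6.

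Of the inflammasome genes, Pycard was higher in the diabetic libraries. It stood at 191, 172, 154, 178 and 162 normalised CPM in controls 1, 3, 4, 5 and 6, and at 239.9, 210.2, 290.2 and 204 in diabetics 1, 2, 4 and 5. Every diabetic library lay above every control library, with diabetic 4 the highest. The means were 171 ± 14.4 (SD, n = 5) and 236 ± 39.4 (SD, n = 4), a fold of 1.38 and a log2 difference of 0.46 (SE 0.15, edgeR adjusted p = 0.0991). Leaving out controls 4 and 6 gave 0.38 (SE 0.15, edgeR adjusted p = 0.207). Of the border macrophage genes, 7 of 7 tested had a positive log2 difference and none passed an adjusted p of 0.05. At an unadjusted edgeR p under 0.05, 5 were higher, where 8.94% of all genes were. For 2 the groups did not overlap, against 4.27% of all genes higher. Of 5 monocyte genes tested, 4 were positive, each at an unadjusted edgeR p under 0.05, where 8.94% of all genes were higher. For 2 of them the groups did not overlap, against 4.27% of all genes higher, and none passed. The border macrophage share was highest in diabetic 1, not in diabetic 4, and control 3 (0.0758%) lay above diabetic 2 (0.0669%). The monocyte share was 0.0153%, 0.0114%, 0.0182% and 0.0108% in diabetics 1, 2, 4 and 5, the same order as Pycard. In control 1 it was 0.0113%, above diabetic 5. Neutrophil genes other than Csf3r also held their largest share in diabetic 4 (0.00822%). Of the border macrophage genes, the scavenger receptor gene Cd163 ran from 38.8 to 92.1 normalised CPM in control and from 119 to 262 in diabetic libraries. The neutrophil gene S100a9 ran from 0.214 to 5.58 and from 14.8 to 52.9 normalised CPM. Their part in the Pycard and Il33 differences was not tested.

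Nlrp3, the sensor, stood at 320.2, 338, 530.4, 424 and 617 normalised CPM in controls 1, 3, 4, 5 and 6, and at 333, 342, 383 and 464 in the diabetics. Controls 4 and 6 were its highest libraries, as for Il1a and Il1b, but within a range of 1.93-fold. The log2 difference was -0.23 (SE 0.21, edgeR adjusted p = 0.529), and 0.07 (SE 0.14) without these libraries. Casp1, the protease, ran from 73.4 to 105 in control and from 74.8 to 90.9 normalised CPM in diabetic libraries, with a log2 difference of -0.09 (SE 0.12, edgeR adjusted p = 0.690). Its controls 4 and 6 stood at 92.4 and 80.9, inside the range of the others.

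**Figure D4:**
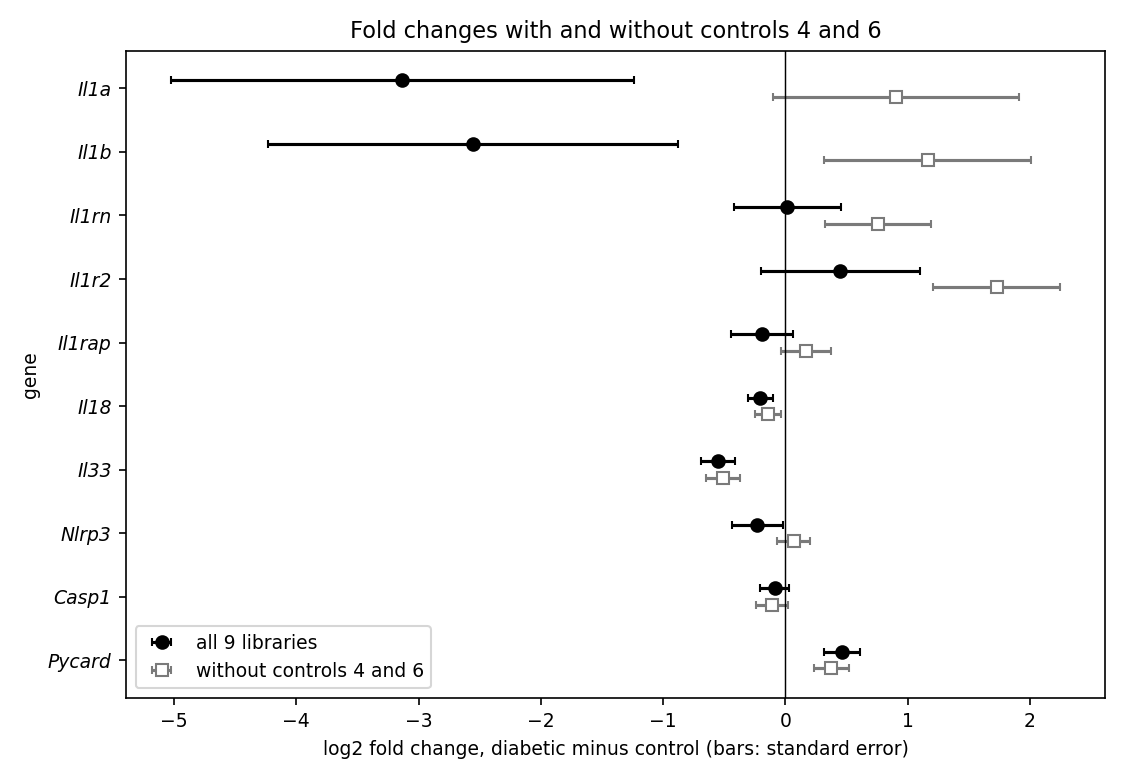
Log2 fold change of each gene, diabetic minus control, with all 9 libraries (filled circles) and without controls 4 and 6 (open squares); bars are the standard error. Il1a moves from -3.13 to 0.90 and Il1b from -2.56 to 1.16, while Il33 (-0.55 and -0.51) and Pycard (0.46 and 0.38) stay on their side of 0.

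In the edgeR test 0 of the 10 genes passed an adjusted p of 0.05, where 0.0681% of all tested genes did. At an adjusted p of 0.1 there were 2, Il33 lower and Pycard higher, where 1.9% of all genes did. The same 2 genes were the ones at an unadjusted p under 0.05, where 18.9% of all genes were (10% lower and 8.94% higher). They were also the ones whose groups did not overlap, against 8.44% of all genes (4.16% lower and 4.27% higher). DESeq2's Wald test called both at 0.05 (4.88% of 11940 genes), and limma-voom called neither (0.034%). Il33 alone passed 0.05 in edgeR with no filter on low counts (0.236% of all genes) and without control 1 (0.646%). The median log2 difference of the 10 genes was -0.20, with 3 positive and 7 negative, against 0.0017 over all genes. Without controls 4 and 6 it was 0.27, with 7 positive and 3 negative. No meaning is read into these counts, since the same comparison entered the choice of genes.

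The authors' deposited table of the same comparison gave Il33 a log2 fold change of -0.44 (adjusted p = 0.204) and Pycard 0.57 (adjusted p = 0.0759). The authors' deposited table gave Il1a -2.87 (adjusted p = 0.103) and Il1b -2.29 (adjusted p = 0.176). None of the 10 genes passed 0.05 there, where 2.1% of its 12069 genes did.

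Across the 7 libraries other than controls 4 and 6, all 45 pairs of the 10 genes were correlated on log2 CPM with a two-sided exact permutation test. None of the pairs passed after adjustment, and the lowest adjusted value was 0.312. Il1a and Il1b gave Pearson's r = 0.878 (exact permutation p = 0.0131, adjusted 0.312) and Spearman's rho = 0.75 (exact permutation p = 0.0663, adjusted 0.497), with r = 0.874 once control 1 and diabetic 4, the libraries farthest from the median of Il1a, were left out. Il33 and Il1b gave r = -0.561 (exact permutation p = 0.181, adjusted 0.475) and rho = -0.536 (exact permutation p = 0.236, adjusted 0.648), and r was 0.059 without controls 1 and 3, so the value rested on those libraries. Il33 and Il1a gave r = -0.325 (exact permutation p = 0.459, adjusted 0.827) and rho = -0.25 (exact permutation p = 0.595, adjusted 0.844), with r = -0.177 without control 1 and diabetic 4. These libraries mix both groups, and no group alone holds 6 libraries.

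The genes whose log2 CPM was most like that of Il1a over the 9 libraries were Cd274, Arl5b, Irf1, Maff and Cd83, with r from 0.987 to 0.994. For Il1b they were Plk3, LOC688922, Sowahc, Bcl3 and Nfkbid, with r from 0.986 to 0.991. Controls 4 and 6 weigh on these values, and over the other 7 libraries r ran from 0.937 to 0.979 and from 0.952 to 0.972. The genes most like Il33 were others: Stau2, Vwa9, Creg1, Abcb1a and Ddx1, with r from 0.940 to 0.957. Each of these 5 genes was lower in every diabetic than in every control library, as 4.16% of all genes were; the choice by likeness to Il33, whose groups do not overlap, leads to this. Creg1 ran from 204 to 241 in control and from 151 to 180.4 normalised CPM in diabetic libraries (log2 difference -0.42, edgeR adjusted p = 0.0895). These r values describe the libraries, which share their group labels and depth.

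Other genes of the pathway were taken from lists chosen with earlier results known. Of the other ligands, Il36a, Il36g and Il36rn held no read, and Il36b and Il1f10 at most 2 reads in a library, so none of the 5 could be tested. The IL-33 receptor gene Il1rl1 was expressed, at 56.1 to 81.5 normalised CPM in control and 51.5 to 72.6 in diabetic libraries (log2 difference -0.21, SE 0.15, edgeR adjusted p = 0.415). Il1r1, the signalling receptor of IL-1, held 26, 20, 1, 0 and 0 reads in controls 1, 3, 4, 5 and 6 and 3, 3, 0 and 5 in the diabetics, too few to test. The lowest counts were in controls 5 and 6 and diabetic 4, and the highest in controls 1 and 3. The other 2 receptor genes tested were Il18rap (log2 difference 0.49, edgeR adjusted p = 0.346) and Il18bp, a soluble trap of IL-18 (-0.42, edgeR adjusted p = 0.458).

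Of 18 signalling genes downstream of the IL-1 receptor, 0 passed an edgeR adjusted p of 0.05 and 2 were at an unadjusted p under 0.05, where 18.9% of all genes were, with 2 positive, 16 negative and a median log2 difference of -0.18. In the fit without controls 4 and 6, 5 were positive and 13 negative, with a median of -0.064 and 0 at an unadjusted p under 0.05. The kinase gene Chuk had the smallest p (-0.43, SE 0.18, edgeR adjusted p = 0.168), followed by Map3k7 (-0.55, edgeR adjusted p = 0.257). The positive ones were Irak3, an inhibitor of the pathway (0.14), and Tab1 (0.05). Irak2 stood at 225 and 406 normalised CPM in controls 4 and 6, against 49.8 to 76.0 in the other 7 libraries, and its log2 difference was -1.30 with these 2 controls and 0.15 without them.

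Of 16 other inflammasome and pyroptosis genes tested, 0 passed, 8 were positive and 8 negative, and the median was 0.0052. Txnip, a thioredoxin inhibitor that can bind NLRP3 and is known to respond to glucose, came closest. It stood at 493, 527, 397, 484 and 347 normalised CPM in controls 1, 3, 4, 5 and 6, and at 667, 733, 734 and 789.9 in the diabetics. Every diabetic library lay above every control library, as for 4.27% of all genes (log2 difference 0.70, SE 0.18, edgeR adjusted p = 0.0608). Txnip was the only gene of this list at an unadjusted edgeR p under 0.05, where 8.94% of all genes were higher. Aim2, a DNA sensor, was highest in controls 4 and 6, at 26.7 and 31.2 against 8.03 to 14.1 in the others (log2 difference -0.87, edgeR adjusted p = 0.285, and -0.088 without controls 4 and 6). Gsdmd, the pore-forming substrate of caspase-1, ran from 40.9 to 51.2 in control and from 41.1 to 55.6 in diabetic libraries. Nlrp12 was too weak to test, with 2 reads in control 4, none in the other controls, and 14, 11, 8 and 3 reads in diabetics 1, 2, 4 and 5.

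Of 18 NF-kappaB target genes tested, 0 passed, with 2 positive and 16 negative and a median of -0.99. The gene Cebpd alone (1 of 18, higher) was at an unadjusted edgeR p under 0.05, where 8.94% of all genes were higher. Without controls 4 and 6, the highest libraries on this list, all 18 were positive, with a median of 0.62 and none past the threshold. Leaving out the highest controls raises such differences by itself, so these signs are a description only. The whole list held 1.57% and 2.29% of counts in controls 4 and 6, 0.174% to 0.387% in the other controls and 0.313% to 0.757% in the diabetics. The libraries fell in the order of their Il1b on this list, apart from diabetics 1 and 2, which changed places.

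Genes of the cell isolation response include immediate early genes such as Fos, Jun and Egr1 that rise during tissue digestion. As a list they were also highest in controls 4 and 6. They held 2.28% and 2.81% of counts in controls 4 and 6, 0.431% to 0.976% in controls 1, 3 and 5, and 1.27% to 2.01% in the diabetics. Every diabetic library thus lay above controls 1, 3 and 5, which was not so for Il1a or Il1b. Control 5 (0.814%) lay below diabetic 4 (1.27%) here but held more Il1a and Il1b. With all libraries 8 of the 16 tested had a positive and 8 a negative log2 difference, with a median of -0.011. Without controls 4 and 6, 16 of 16 were positive, with a median of 1.27. As these were the highest controls on this list, leaving them out raises the differences by itself. In both fits 0 passed an edgeR adjusted p of 0.05. At an unadjusted edgeR p under 0.05 there were 0 with all libraries, where 18.9% of all genes were. Without controls 4 and 6 there were 9, all higher, where 1775 of all 11902 genes were in either direction. The part of cell isolation in the Il1a and Il1b values was not tested. Neutrophil genes other than Csf3r held 0.00012% and 0.000184% of counts in controls 4 and 6, against 8.74e-05% to 0.00128% in controls 1, 3 and 5 and 0.00221% to 0.00822% in the diabetics. In this list the high Il1b libraries were thus among the low ones.

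**Figure D5:**
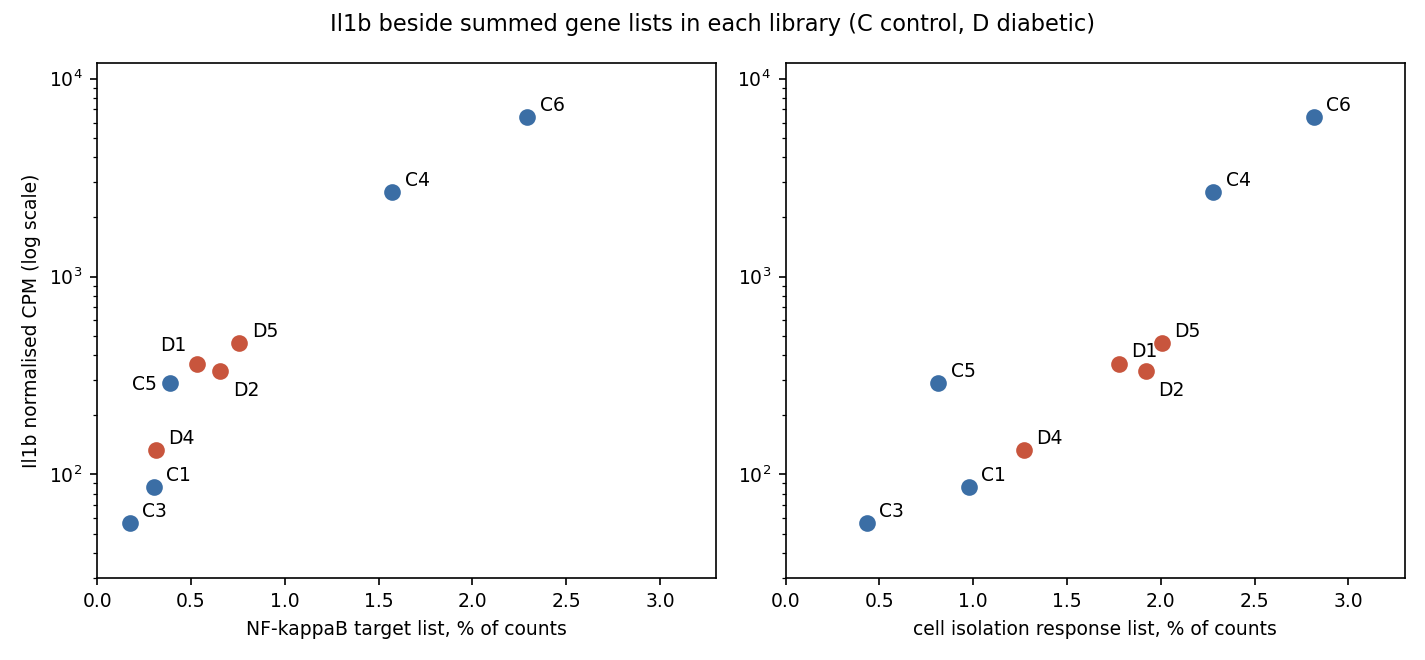
Normalised CPM of Il1b (log axis) against the share of counts, in percent, on the NF-kappaB target list (left) and the cell isolation response list (right) in each library, controls (C) in blue and diabetics (D) in red. Controls 4 and 6 hold the highest values on all 3 measures, with list shares of 1.57% and 2.29% on the left.

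Levels of different genes can be set side by side per length for the few with a reference-named transcript. On the Rnor6 build, Il1a (ENSRNOG00000004575) spans chromosome 3, 121825835 to 121835360, and Il1b (ENSRNOG00000004649) 121876263 to 121882726, both on the minus strand and 40.9 kb apart, with 6 and 7 exons. Pycard (ENSRNOG00000019675) spans chromosome 1, 199437832 to 199439210, with 3 exons. In TPM, a level scaled by transcript length and library depth, Pycard ran from 101 to 139 in control and from 152 to 202 in diabetic libraries. Il1b ran from 9.87 to 1018 TPM in control libraries and from 23.4 to 96.0 in diabetics 2, 4 and 5, and it was listed at 0 in diabetic 1, whose table gave 3676 Il1b reads. By group medians, the level of Il1b was below that of Pycard, by a log2 ratio of -1.20 in control and -1.99 in diabetic libraries with that 0 kept, and -1.34 in diabetic libraries without diabetic 1. With CPM per kilobase of the same transcripts, not scaled by TMM factors, the ratio was 0.16 and 0.042, so the order of these genes changed with the unit.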

How the data were processed

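Raw counts per gene for 9 libraries, as the authors deposited them, were the main data; which program counted the reads, and whether by strand, is not given in the sources used here. Per the submitters' processing notes, bcl2fastq 2.18.0.12, TopHat2 2.0.14, StringTie 1.2.4 and edgeR were used on Rnor_6.0. The authors' deposited table of log2 fold changes and p-values was read as given, and TPM came from the deposited StringTie assemblies, in which 8.45% to 12.7% of TPM lay on reference-named transcripts.

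The counts were filtered with filterByExpr (minimum count 10, minimum total 15), scaled by TMM and tested with edgeR 4.0.16 (quasi-likelihood, robust, R 4.3.3) without covariates, with Benjamini-Hochberg adjustment over 11748 genes and a threshold of 0.05. The SE is the log2 fold change over the normal quantile of its p. The common biological coefficient of variation was 0.251. On simulated counts for 11748 genes, all drawn with this common variation, 62% of 2-fold and 98% of 4-fold changes were recovered. Il1a and Il1b varied far more (control log2 SD 3.24 and 3.01), so these rates do not apply to them. No 2 libraries of a group were alike within sampling noise (chi-square per degree of freedom at least 11.7). Groups came from the titles and treatment labels. The labels name no animal for a library, so p-values measure the spread between these samples.

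The members, gene lists and tests were chosen with earlier results of these data known. The text names all 10 genes and the 5 genes most correlated with Il1a, Il1b and Il33. Of the up to 3 genes per direction and list with the smallest p, it names only some. Peli1, Mefv, Card9, Casp4, Nek7, Nfkbia, Icam1 and Bcl2a1 met that rule and are not described. Cd163, the neutrophil genes, Car2, Slc1a3, Gfap, Glul, Irak2, Gsdmd, Il1r1 and Nlrp12 were named after their values were seen. Alternatives were other scalings, no filter, DESeq2 1.42.0, limma 3.58.1 voom, a replicate block, TPM, and leaving libraries out.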

Additional observations from a re-analysis of the deposited data

Results flagged for a closer look

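Of the 20 groups of library values checked, 1 held a library far from the others: Il1r2 in control 6, at 12.1 normalised CPM, against 1.42 to 4.52 in the other 4 controls. Chance alone flags about 1 in 20 such groups. Control 6 rested on 94 Il1r2 reads and was also the highest library for Il1a, Il1b and Nlrp3. Without it, the highest control was 3.19 times the lowest for Il1r2, against 8.56 with it.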

How the results depend on the processing

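Of 173 log2 fold changes of the 10 genes recomputed under other settings, 157 kept their direction and their side of the threshold, 4 passed it and 12 turned their sign. The 4 that passed were Il33 with no filter, with DESeq2's Wald test (adjusted p = 4.54e-05) and without control 1 (edgeR adjusted p = 0.046), and Pycard with DESeq2's Wald test (adjusted p = 0.0214). The number of the 10 genes past the threshold was thus 1 with no filter and 2 with DESeq2, and leaving out 1 library at a time gave 0 to 1. Of the pathway genes, Txnip alone passed, so that the count was 1 with upper-quartile factors, 1 with no filter, 1 with DESeq2 and 0 to 1 over libraries left out, with 1 without control 1. Il33 ran from -0.62 to -0.44 and Pycard from 0.35 to 0.57 over their alternatives, with no turn of sign, and their adjusted p from 4.54e-05 to 0.365 and from 0.0214 to 0.762.

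Without controls 4 and 6 together the log2 difference was 0.90 for Il1a, 1.16 for Il1b, 0.17 for Il1rap and 0.068 for Nlrp3. Casp1 was 0.026 with no normalisation factors, a setting that moved the median of all genes to 0.12, and Nlrp3 was 0.12 in TPM. Leaving out 1 library gave -0.21 to 0.36 for Il1rn and -0.30 to 0.021 for Il1rap (positive without control 4). It gave -0.21 to 1.60 for the group difference of the ratio of Il33 to Il1a (negative without control 6) and -0.80 to 0.87 for that to Il1b (negative without control 4, control 6 or diabetic 4). Without controls 4 and 6 together, a setting chosen for these values after seeing the data, the group differences of the ratios were -1.44 and -1.89, and the control highest over lowest was 5.90 for Il1a and 5.10 for Il1b. Leaving out 1 library, it ranged from 77.9 to 149 for Il1a and 47.3 to 113 for Il1b in controls, and from 2.78 to 7.86 and 1.38 to 3.48 in diabetics. CPM per kilobase in place of TPM gave 0.16 and 0.042 for the ratio of Il1b to Pycard, and leaving out diabetic 1, also chosen after seeing the data, gave -1.34 in diabetics. Il1a and Il1b were -2.01 and -1.26 without control 6 and -1.21 and -0.63 with limma-voom, and Il1r2 ran from 0.12 (without diabetic 1) to 1.27 (without control 6) over libraries left out. The cause of these shifts was not tested.

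Over all genes, 8 passed (5 of them higher), against 29 (28 higher) with no factors, 31 (27 higher) with upper-quartile factors, 42 (29 higher) with no filter, 583 (275 higher) with DESeq2, 4 with limma-voom, 0 to 75 over single libraries left out (75 without control 1, 0 without control 4, diabetic 1 or diabetic 4) and 6 of 2482 in TPM. Replicate numbers 1, 4 and 5 occur in both groups. Libraries of the same number gave correlations of 0.20, -0.11 and 0.02, and only those numbered 1 correlated best with their own number. So few shared numbers cannot show whether the libraries are paired. With the replicate block, 0 genes and 0 of the 10 passed, with 1150 at an unadjusted p under 0.05; the same 6 libraries without the block gave 0 and 1249. Reads limit Il1rn and Il1r2, where a library holds as few as 14 and 15.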
